A study of Homo sapiens with 6 samples.

Results

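The genes described here keep and rebuild chromatin when a cell copies its DNA, and 9 of the 10 named members were measured. They were chosen by function, with earlier results of these data known, so the counts below describe them and are no independent test. They were taken from the deposited table by gene identifier, out of 13021 identifiers with a single row. The measured genes were DNMT1 and HELLS for DNA methylation, EZH2, SUZ12 and EED for Polycomb repressive complex 2 (PRC2), and ASF1B, CHAF1A, CHAF1B and NASP as histone chaperones. UHRF1, which brings DNMT1 to newly copied DNA, matched no row under its identifier (ENSG00000276043) and is not analysed here. All 9 were among the 10875 genes listed in all 3 lines, so none was lost to a filter on low values. On GRCh38 with GENCODE 29 they lie as DNMT1 at chr19:10133345-10231286, HELLS at chr10:94501434-94613905, EZH2 at chr7:148807383-148884321, SUZ12 at chr17:31937018-32001045, EED at chr11:86244544-86278813, ASF1B at chr19:14119509-14136956, CHAF1A at chr19:4402662-4445018, CHAF1B at chr21:36385378-36419015 and NASP at chr1:45583846-45618904, and the levels are gene totals, with no split by exon or isoform.

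RNA was sequenced from HCT116, HT29 and SW480, established human colorectal cancer lines, each stably transduced by lentivirus. The BZW2 shRNA group carried a short hairpin RNA against BZW2, whose product resembles part of eIF5, a translation initiation factor, and the control shRNA group carried a nontargeting hairpin. Puromycin selection at 1 µg/ml was applied to cells of both groups, the titles give the same BZW2 hairpin tag in all 3 lines, and the HCT116 cells are titled HCT116WT. There was 1 library per line and hairpin, so lines served as the 3 replicates.

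DNMT1 restores the methylation of CpG dinucleotides on the new DNA strand, and HELLS is a chromatin remodeller that lets methylation reach packed DNA. PRC2 methylates a lysine in the tail of histone H3 and keeps developmental genes silent, with EZH2 as its catalytic subunit, SUZ12 as its scaffold and EED as the subunit that reads the mark. NASP holds soluble histones, ASF1 proteins hand them on, and behind the replication fork chromatin assembly factor 1, which is built from CHAF1A, CHAF1B and RBBP4, places them on new DNA. Most of these genes are expressed mainly in dividing cells.

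Depth over listed genes was lowest in the BZW2 shRNA library of HCT116, at 2187373 reads, and lay between 5078001 and 9317444 reads in the other libraries. In HCT116 the log2 ratios had an SD of 1.59 over all genes, against 0.66 in HT29 and 0.67 in SW480. These ratios also followed the GC content of the transcript, with a Spearman correlation across genes of 0.69 (HCT116), 0.32 (HT29) and −0.05 (SW480) over 10875 genes, which share their libraries. The fold changes across lines and the list medians are therefore given with and without HCT116. BZW2 itself had 52.9 normalised reads with its hairpin against 291 with the control hairpin in HCT116, which is 18.2% of control, and it stood at 8.85% for HT29 and 13.8% for SW480. All 5 epithelial markers examined were listed in every line, and their summed level was 52007 with BZW2 shRNA against 13042 with control shRNA in HCT116, 83316 against 94254 in HT29 and, in SW480, 36824 against 37002. The HCT116 sum was carried by KRT8, KRT18 and KRT19, at 4.14- to 5.28-fold, while EPCAM was at 0.717-fold and CDH1 at 0.479-fold there. CDH1 was lower in every line, with a log2 fold change of −1.13 ± 0.36 (limma adjusted p = 0.305, and 0.0431 without HCT116). The part of these markers in the results was not tested. Of 6 fibroblast markers 1 was listed, COL1A1, with at most 26 reads in a library, and of 6 leukocyte markers 0 were listed.

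Promoter sequences are shown for 4 of the genes because they differ in their response: CHAF1A was higher with BZW2 shRNA in every line, HELLS and SUZ12 went in opposite directions between lines, and EZH2 differed little. Each is the stretch before the RefSeq start site on GRCh38.p14, 250 bases long, or 220 bases for EZH2 after 30 bases that overlap an annotated exon were removed. They lie at chr19:4402390-4402639 (plus strand), chr10:94545538-94545787 (plus strand), chr7:148884322-148884541 (minus strand) and chr17:31936757-31937006 (plus strand), and that of HELLS lies within the GENCODE span of the gene, which has starts further upstream. Capitals mark, on either strand, the CCAAT box (CCAAT), the E2F-type core (TTTNNCGC) and the cell cycle homology element (TTTGAA); in CHAF1A the run CCAATTGG is a pair of overlapping CCAAT boxes.
CHAF1A: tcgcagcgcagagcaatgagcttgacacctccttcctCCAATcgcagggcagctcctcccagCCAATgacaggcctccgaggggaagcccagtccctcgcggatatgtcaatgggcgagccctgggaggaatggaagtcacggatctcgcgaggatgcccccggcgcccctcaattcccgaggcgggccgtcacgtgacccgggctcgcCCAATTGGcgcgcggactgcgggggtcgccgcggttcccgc
HELLS: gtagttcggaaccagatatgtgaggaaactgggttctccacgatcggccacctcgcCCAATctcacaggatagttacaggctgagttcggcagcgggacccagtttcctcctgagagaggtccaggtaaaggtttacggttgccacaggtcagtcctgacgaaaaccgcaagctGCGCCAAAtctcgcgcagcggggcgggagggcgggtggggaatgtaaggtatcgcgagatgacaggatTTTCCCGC
EZH2: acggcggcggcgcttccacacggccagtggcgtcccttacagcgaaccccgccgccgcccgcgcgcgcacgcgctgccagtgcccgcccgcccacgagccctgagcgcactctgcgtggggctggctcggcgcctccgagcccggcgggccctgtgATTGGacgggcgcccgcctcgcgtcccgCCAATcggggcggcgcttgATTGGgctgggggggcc
SUZ12: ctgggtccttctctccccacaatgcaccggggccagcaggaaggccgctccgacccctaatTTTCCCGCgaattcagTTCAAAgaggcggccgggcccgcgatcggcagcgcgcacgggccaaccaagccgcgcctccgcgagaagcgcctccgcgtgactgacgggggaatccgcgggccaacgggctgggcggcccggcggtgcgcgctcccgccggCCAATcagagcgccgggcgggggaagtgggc
RefSeq held a promoter for all 9 measured genes, and where it listed more than 1 start the first was used. A CCAAT box was found in 7 of the 9, all but DNMT1 and CHAF1B, against 33.0% of 27305 promoters. The E2F-type core was found in HELLS and SUZ12, against 5.93% of promoters, and TTTGAA in ASF1B and SUZ12, against 13.6%. These counts used the whole 250 bases, without removal of exon bases. The windows of DNMT1 and ASF1B, like that of HELLS, lie within the GENCODE span of the gene, and those of EED, EZH2, CHAF1B and NASP reach into it. A match describes letters and does not show binding.

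Among the 9 measured genes, the histone chaperone genes stood higher with BZW2 shRNA in every line, and DNMT1 did so unevenly. The PRC2 subunit genes among them had no shared direction. Of the 9 measured genes, 5 were higher in all 3 lines (DNMT1, ASF1B, CHAF1A, CHAF1B and NASP), against a background of 23.7% of all genes tested. In bulk RNA a larger share of dividing cells and more transcript per cell cannot be told apart. None was lower in all 3 lines, a pattern seen in 19.8% of all genes. The median log2 fold change of the 9 was 0.89, against 0.02 over all genes. In each line 6 to 8 of the 9 were higher, with median log2 ratios of 0.57 (HCT116), 1.19 (HT29) and 0.99 (SW480). Over all genes these medians were 0.009, 0.042 and 0.039, so more genes lay above 0 than below it in every line. In both HT29 and SW480, 7 of the 9 were higher, against 34.3% of all genes. At least 2-fold higher were 4 genes in HCT116, against 26.8% of listed genes, 6 in HT29, against 4.43%, and 4 in SW480, against 5.38%. At least 2-fold lower were 0 of the 9 in HT29, against 6.97% of listed genes, and 0 in SW480, against 8.01%. The HCT116 share thus has to be read against a line in which 28.9% of genes were also at least 2-fold lower, 2 of the 9 among them.

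**Figure D1:**
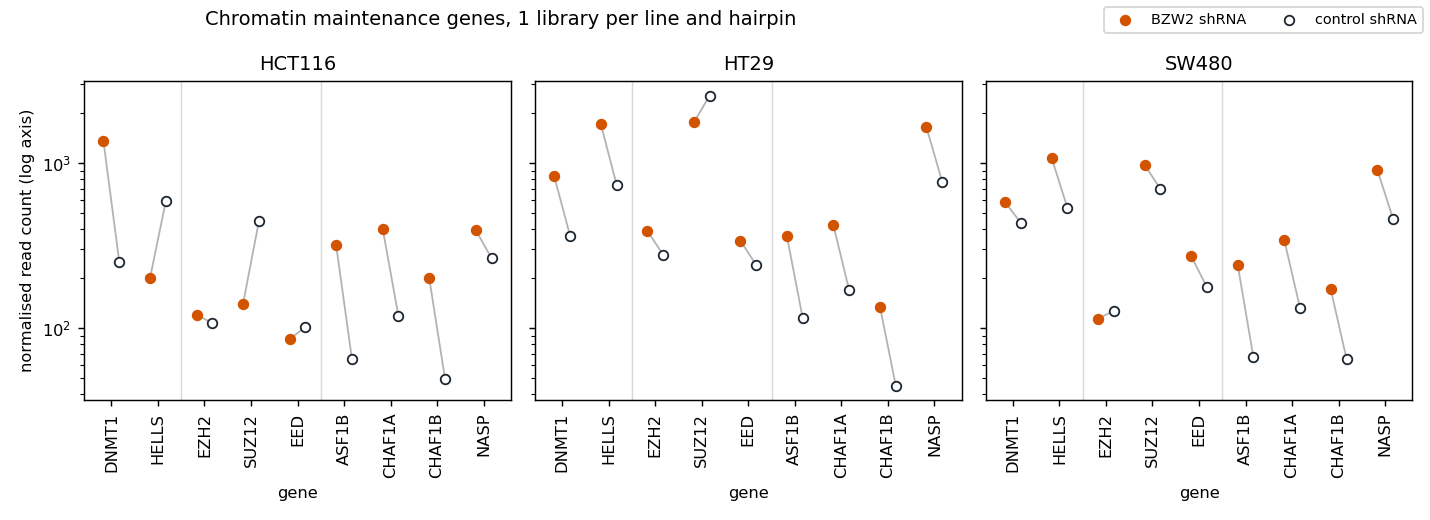
Normalised read counts (log axis) of the 9 measured genes in each line, 1 point per library, BZW2 shRNA filled and control shRNA open. The genes from ASF1B to NASP, right of the second grey divider, are higher with BZW2 shRNA in each panel, and HELLS and SUZ12 slope the opposite way in HCT116 and SW480.

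No gene passed in limma, the test across lines with Benjamini-Hochberg adjustment over all genes, where the background was 0.0% in either direction. At an unadjusted limma p under 0.05 there were 5 of the 9, all higher, against 6.59% of all genes, and 0 were lower, against 7.04%. These are the same 5 that were higher in every line. The quasi-likelihood test of edgeR had 4 of the 9 below that unadjusted level, against 1287 of all 10875 genes in either direction, and 0 past adjustment. DESeq2 passed 3, ASF1B, CHAF1A and CHAF1B, against 1.01% of all genes called higher, and 0 of the 9 lower, against 1.23%. Without HCT116 limma passed 5, namely those 3 with NASP and HELLS, against 1.72% of all genes, and 0 lower, against 1.39%, in a fit with fewer residual degrees of freedom. An exact permutation test over 3 pairs cannot give a two-sided p below 0.25.

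ASF1B, the ASF1 form of dividing cells, which carries H3-H4 histone pairs to the assembly machinery, had the largest fold change of the 9 across lines on the deposited scale; with the GC and length correction CHAF1B exceeded it. Its level was 317 normalised reads with BZW2 shRNA against 64.7 with control shRNA in HCT116, 361 against 115 in HT29 and, in SW480, 242 against 66.4. Because the deposited values share a scale only within a line, lines were compared as reads per kilobase of the longest transcript and unit of library size (RPKM). On that scale ASF1B stood between 19.1 and 39.1 with BZW2 shRNA and between 5.85 and 10.3 with control shRNA, so the groups did not overlap. The share of all genes whose groups did not overlap was not counted, so here and below this describes single genes. The folds of ASF1B were 4.91 in HCT116 (95% counting interval 3.86 to 6.25), 3.15 in HT29 (2.55 to 3.91) and 3.65 in SW480 (2.75 to 4.92). The log2 fold change over the 3 lines came to 1.93 ± 0.40 (SE; limma adjusted p = 0.25), and 1.75 ± 0.29 without HCT116 (limma adjusted p = 0.00981).

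Both private subunits of chromatin assembly factor 1 were higher in every line by similar folds. CHAF1A, the large subunit, which binds the sliding clamp PCNA, had 399.5 normalised reads with BZW2 shRNA against 118 with control shRNA in HCT116, 419 against 169 in HT29 and, in SW480, 344 against 133. For CHAF1B, the subunit that binds ASF1, the values were 201 with BZW2 shRNA against 49.3 with control shRNA in HCT116, 135 against 44.7 in HT29 and, in SW480, 172 against 65.2. In RPKM the groups did not overlap for CHAF1A, at 13.6 to 30.4 with BZW2 shRNA and 5.62 to 11.6 with control shRNA, but did for CHAF1B, at 3.27 to 11.4 with BZW2 shRNA and 1.11 to 3.63 with control shRNA. CHAF1A was 3.39-fold higher in HCT116 (2.80 to 4.11), 2.48-fold in HT29 (2.07 to 2.97) and 2.59-fold in SW480 (2.10 to 3.21). CHAF1B was 4.07-fold higher in HCT116 (3.05 to 5.44), 3.01-fold in HT29 (2.14 to 4.31) and 2.63-fold in SW480 (1.96 to 3.59). Within each line the intervals of the 2 subunits overlapped. Their log2 fold changes were 1.47 ± 0.38 for CHAF1A and 1.65 ± 0.43 for CHAF1B (limma adjusted p = 0.263 for each), and without HCT116 1.33 ± 0.27 and 1.48 ± 0.33 (limma adjusted p = 0.0213 and 0.0311). CHAF1B was counted from few reads, 46 to 90 in the control libraries. RBBP4, the shared subunit that also serves PRC2, had a log2 fold change of 0.12 ± 0.37 (0.37 ± 0.27 without HCT116).

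NASP, which stores soluble H3 and H4, was higher in every line by a smaller margin. Its level was 392.2 normalised reads with BZW2 shRNA against 265 with control shRNA in HCT116, 1646 against 765 in HT29 and, in SW480, 912 against 460.1. In RPKM it stood at 27.2 to 48.9 with BZW2 shRNA and at 22.8 to 23.8 with control shRNA, and the groups did not overlap. The folds were 1.48 in HCT116 (1.26 to 1.74), 2.15 in HT29 (1.97 to 2.35) and 1.98 in SW480 (1.77 to 2.23). In RPKM, which scales by library size alone, the HCT116 values were closer, at 27.2 with BZW2 shRNA against 23.8 with control shRNA. The log2 fold change was 0.89 ± 0.36 (limma adjusted p = 0.35), and 1.05 ± 0.25 without HCT116 (limma adjusted p = 0.0432).

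DNMT1, the maintenance methyltransferase, was higher in every line, with folds that differed widely between lines. It had 1352 normalised reads with BZW2 shRNA against 251 with control shRNA in HCT116, 831 against 363 in HT29 and, in SW480, 581 against 434. In RPKM it stood at 16.7 to 63.5 with BZW2 shRNA and at 7.43 to 15.3 with control shRNA, so the groups did not overlap. The fold was 5.38 in HCT116 (4.79 to 6.06), 2.29 in HT29 (2.03 to 2.60) and 1.34 in SW480 (1.18 to 1.52), so no pair of counting intervals overlapped. The log2 fold change was 1.35 ± 0.44 (limma adjusted p = 0.308) and 0.81 ± 0.28 without HCT116 (limma adjusted p = 0.135). Of the methyltransferases that set new methylation, DNMT3B had a log2 fold change of 0.70 ± 0.50 (0.15 ± 0.35 without HCT116) and DNMT3A of 0.14 ± 0.43 (0.25 ± 0.31 without HCT116). On the scale of reads per kilobase, DNMT1 exceeded DNMT3B 3.71 times with BZW2 shRNA against 2.42 times with control shRNA in HCT116, 10.98 against 7.48 times in HT29 and, in SW480, 3.33 against 1.98 times.

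HELLS, the remodeller, split the lines. It had 201 normalised reads with BZW2 shRNA against 588 with control shRNA in HCT116, 1728 against 739 in HT29 and, in SW480, 1080 against 537. It was lower in HCT116, at 0.34-fold (0.28 to 0.42), and higher in HT29 at 2.34-fold (2.15 to 2.55) and in SW480 at 2.01-fold (1.81 to 2.24). The log2 fold change was 0.23 ± 0.54 over 3 lines and 1.12 ± 0.25 without HCT116 (limma adjusted p = 0.839 and 0.0349). CDCA7, its partner in remodelling, had 177 normalised reads with BZW2 shRNA against 123 with control shRNA in HCT116, 750 against 535 in HT29 and, in SW480, 242 against 116, with a log2 fold change of 0.69 ± 0.38 (0.77 ± 0.27 without HCT116).

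**Figure D2:**
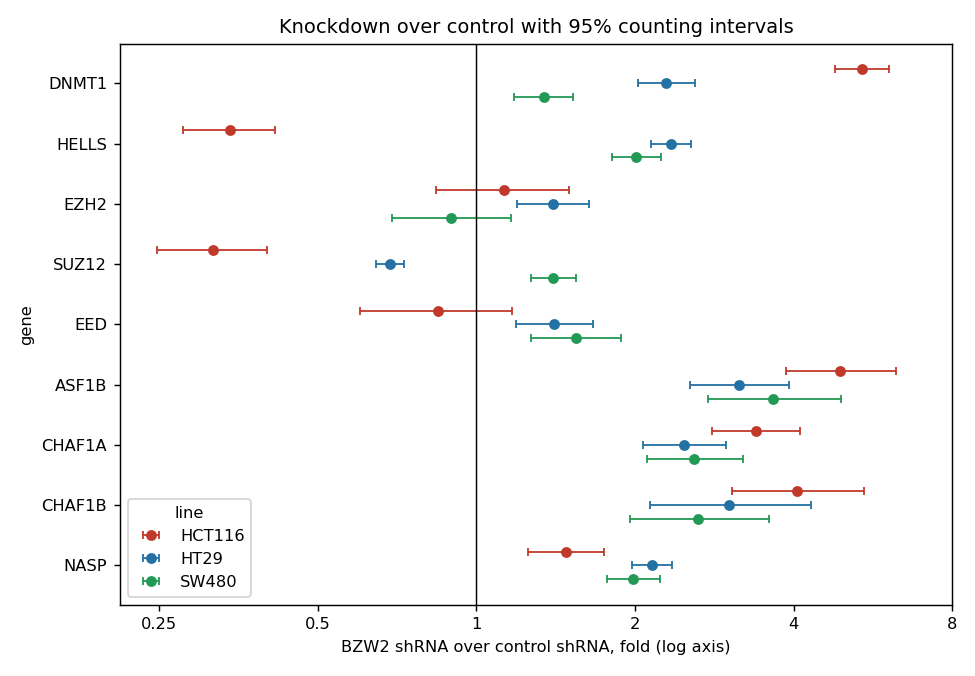
Fold of BZW2 shRNA over control shRNA (log axis) for each gene in each line, with 95% counting intervals from the reads of the 2 libraries. All intervals of DNMT1, ASF1B, CHAF1A, CHAF1B and NASP lie above 1, whereas HELLS and SUZ12 have intervals on both sides of 1.

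The genes of the PRC2 core subunits had no shared direction. EZH2, the methyltransferase, had 120.4 normalised reads with BZW2 shRNA against 107 with control shRNA in HCT116, 389 against 278 in HT29 and, in SW480, 114 against 127. Its folds were 1.13 in HCT116 (0.839 to 1.496), 1.40 in HT29 (1.20 to 1.64) and 0.90 in SW480 (0.69 to 1.16), so that the interval lay wholly on one side of 1 in HT29 and in neither other line. In RPKM, which scales by library size alone, the HCT116 direction of EZH2 turned, at 8.39 with BZW2 shRNA against 9.67 with control shRNA. EED, the reader of the mark, had 85.7 normalised reads with BZW2 shRNA against 101 with control shRNA in HCT116, 338 against 241 in HT29 and, in SW480, 273 against 177. EED was 0.85-fold in HCT116 (0.60 to 1.17), an interval that includes 1, 1.40-fold in HT29 (1.19 to 1.66) and 1.54-fold in SW480 (1.27 to 1.88). SUZ12, the scaffold, had 140.5 normalised reads with BZW2 shRNA against 443 with control shRNA in HCT116, 1760.3 against 2564 in HT29 and, in SW480, 975 against 697. It was 0.32-fold in HCT116 (0.25 to 0.40), 0.69-fold in HT29 (0.65 to 0.73) and 1.40-fold in SW480 (1.27 to 1.55), intervals of which none overlapped another.

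Across lines the limma estimates for EZH2 and EED were smaller than their errors, and that for SUZ12 was larger than its error. The log2 fold change was 0.17 ± 0.40 for EZH2, 0.29 ± 0.41 for EED and −0.57 ± 0.45 for SUZ12 (limma adjusted p = 0.843, 0.725 and 0.533). Without HCT116 they were 0.16 ± 0.29, 0.56 ± 0.27 and −0.029 ± 0.29. Per kilobase, SUZ12 transcripts exceeded those of EED 1.01 times with BZW2 shRNA against 2.69 times with control shRNA in HCT116, 3.20 against 6.55 times in HT29 and, in SW480, 2.20 against 2.43 times, so this subunit ratio was lower in each BZW2 shRNA library. The counting intervals of the SUZ12 and EED folds overlapped in SW480, but not in HCT116 or HT29. Reads of SUZ12 may be shared with its pseudogene SUZ12P1 on the same chromosome, and those of EZH2 with EZH2P1, because the counting rule is not given in the sources used here. CHAF1B and CHAF1A also share short exon stretches, of 89 and 20 bases, with the listed genes MORC3 and UBXN6. ASF1B and CHAF1A overlap annotated antisense exons by 29 and 81 bases, and the use of strand in counting is not given.

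Levels per length gave the same leading genes in each control library. In RPKM SUZ12, NASP and HELLS held the top ranks with control shRNA in all 3 lines, between 16.4 and 63.3, and CHAF1B was last, between 1.11 and 3.63. In the BZW2 shRNA library of HCT116 the order was led by DNMT1 at 63.5 and ASF1B at 39.1, against 15.3 and 10.3 in its control. In the BZW2 shRNA libraries of HT29 and SW480 the top ranks were still those of NASP, SUZ12 and HELLS. CHAF1A exceeded CHAF1B per kilobase 2.67 times with BZW2 shRNA against 3.21 times with control shRNA in HCT116, 4.17 against 5.08 times in HT29 and, in SW480, 2.68 against 2.73 times. The order depended on the transcript length used: with the exon union as length HELLS and SUZ12 changed places at the top of the HCT116 control, NASP and SUZ12 did so in the BZW2 shRNA libraries of HT29 and SW480, and EED came eighth in each control library.

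GC content ordered the HCT116 ratios of these genes as it did those of the whole library. Over the 9 genes the Spearman correlation of the log2 ratio with transcript GC content was 0.85 (HCT116), 0.68 (HT29) and 0.47 (SW480), as a description of 9 genes that share libraries. The transcripts lowest in GC, EED at 33.0%, HELLS at 37.6% and SUZ12 at 38.0%, were the 3 that were lower in HCT116, and those highest in GC, DNMT1 at 55.4%, CHAF1A at 57.6% and ASF1B at 58.4%, were among the 4 at least 2-fold higher there. CHAF1B, at 48.7%, was the fourth.

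**Figure D3:**
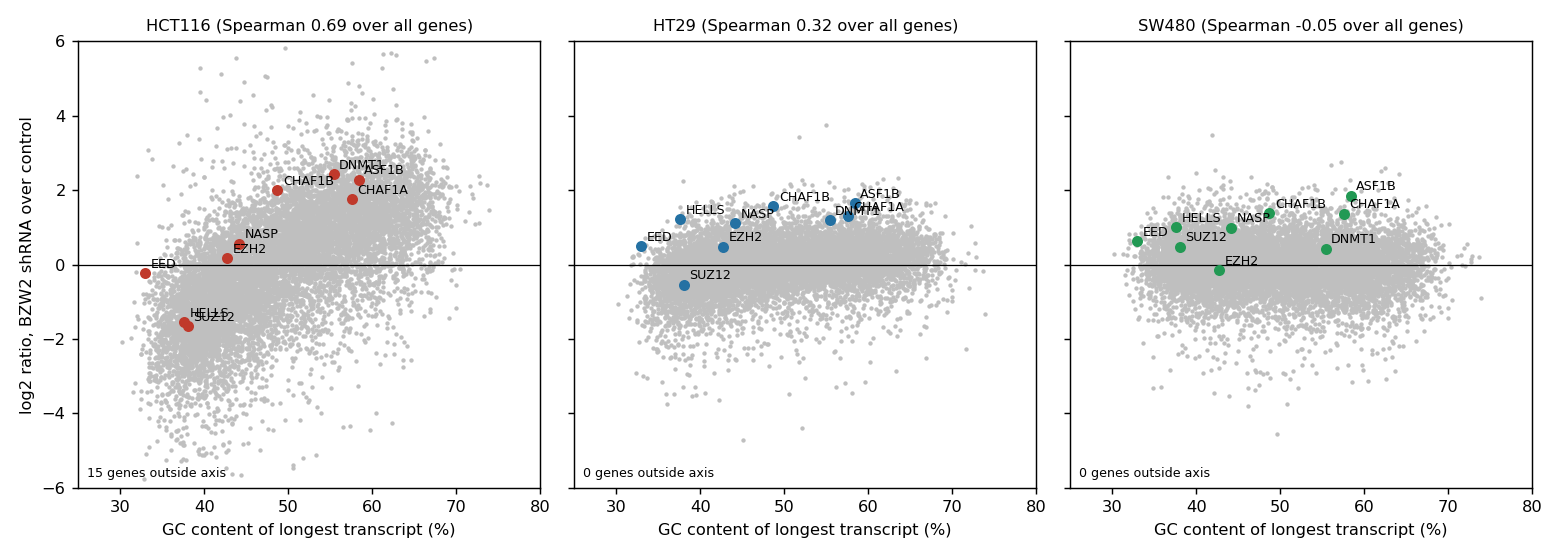
Log2 ratio of BZW2 shRNA over control shRNA against the GC content of the longest transcript, all genes tested in grey and the 9 measured genes in colour, 1 panel per line. The grey cloud slopes upward in HCT116 and lies flat in SW480, and in HCT116 EED, HELLS and SUZ12 sit at its low-GC end.

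After a smooth trend on GC content and transcript length was removed within each line, the HCT116 ratios of the 9 genes drew together. Their SD in HCT116 was 0.72 on the log2 scale, against 1.58 before, and 8 of the 9 were above 0, against 6 before. The HCT116 median over all genes was 0.051 after correction, against 0.009 before. HELLS moved to 0.021 and SUZ12 to −0.19 in HCT116, while EED moved to 1.69. ASF1B, CHAF1A and DNMT1 came to 0.98, 0.56 and 1.62 there, and CHAF1B, at 1.86, moved little. After correction 7 of the 9 genes were higher in every line, against a background of 26.1%, and the remaining 2 were EZH2 and SUZ12. Across lines the corrected log2 fold change was 1.62 ± 0.29 for CHAF1B, 1.41 ± 0.29 for ASF1B, 1.16 ± 0.30 for EED and 0.021 ± 0.25 for SUZ12 (limma adjusted p = 0.0738, 0.0912, 0.12 and 0.973). The same correction brought the log2 ratio of BZW2 in HCT116 to −1.001, against −2.44 before, so it also removed part of the difference in the gene that the hairpin targets.

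**Figure D4:**
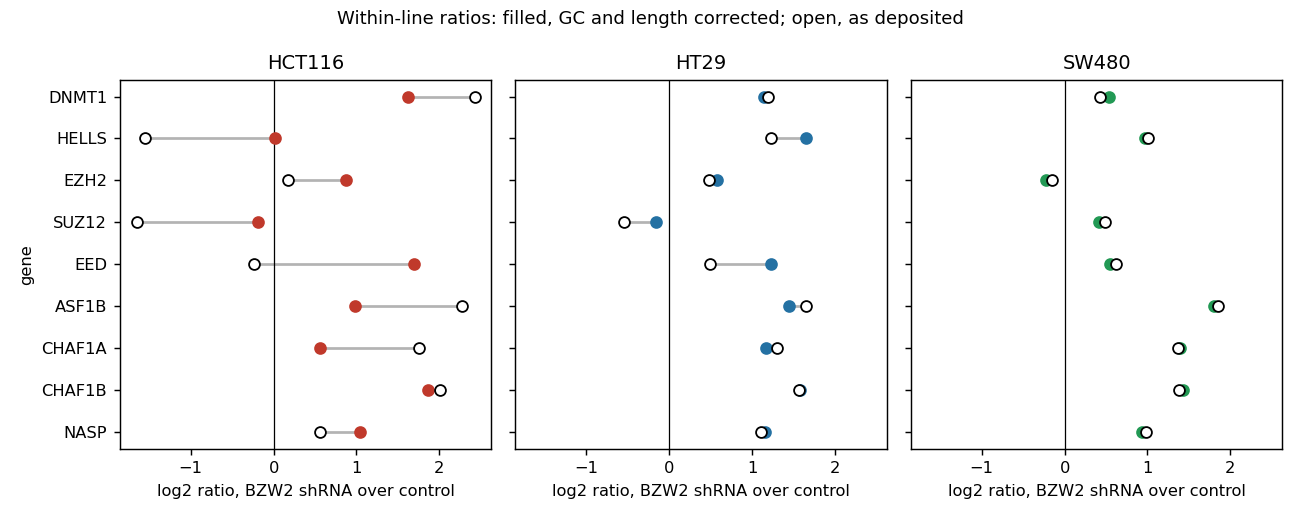
Log2 ratio of BZW2 shRNA over control shRNA for each gene in each line, as deposited (open) and after a trend on GC content and transcript length was removed (filled). The points move far in HCT116, where EED is at −0.24 as deposited and at 1.69 corrected, and little in SW480.

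The paralogs UHRF2, EZH1 and ASF1A had log2 fold changes across lines below 0 on the deposited scale. UHRF2 had a log2 fold change of −0.78 ± 0.39 and EZH1, the PRC2 enzyme of resting cells, of −0.81 ± 0.44, and both were lower in all 3 lines (limma adjusted p = 0.389 and 0.408). Without HCT116 they were at −0.57 ± 0.28 and −0.62 ± 0.31. ASF1A, which also works with the chaperone HIRA outside replication, was at −0.15 ± 0.44, a direction that turned with the GC and length correction (0.55) and without HCT116 (0.23). Per kilobase, ASF1B stood at 7.68 times ASF1A with BZW2 shRNA against 0.83 times with control shRNA in HCT116, 1.41 against 0.44 times in HT29 and, in SW480, 1.46 against 0.57 times. ASF1A thus had more transcripts than ASF1B in each control library and fewer in each BZW2 shRNA library. In HCT116 the GC trend moved with this ratio, since the GC content was 58.4% for ASF1B and 34.9% for ASF1A, and after correction their log2 ratios there were 0.98 for ASF1B and 0.78 for ASF1A. EZH2 exceeded EZH1 4.93 times with BZW2 shRNA against 1.90 times with control shRNA in HCT116, 4.85 against 2.26 times in HT29 and, in SW480, 1.80 against 1.29 times.

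Genes that meet these proteins at the replication fork had the same direction. Of 12 fork partners, 11 were higher in every line, against 23.7% of all genes. At an unadjusted limma p under 0.05, 10 were higher, against 6.59% of all genes, and 0 passed adjustment. The list median was 1.48 (1.07 without HCT116). PCNA, the sliding clamp that binds DNMT1 and CHAF1A, had a log2 fold change of 1.55 ± 0.35, and FEN1, the flap nuclease, of 1.84 ± 0.37, or 1.61 ± 0.26 and 1.57 ± 0.26 without HCT116. Of 25 other histone chaperone genes 9 were higher and 2 lower in every line, against 23.7% and 19.8% of all genes. Their median was 0.43 (0.48 without HCT116). TONSL, which reads new histones at the fork, was at 2.06 ± 0.54 (1.27 ± 0.31 without HCT116, limma adjusted p = 0.0434), and HJURP, the chaperone of the centromeric histone, at 1.39 ± 0.37 (1.22 ± 0.25 without HCT116, limma adjusted p = 0.0237). ATRX, a remodeller that works with the chaperone DAXX, was the 1 gene of the list that was lower at an unadjusted limma p under 0.05, at −1.44 ± 0.56 (−0.63 ± 0.35 without HCT116). It stood at 0.119-fold in HCT116, 0.364-fold in HT29 and 1.15-fold in SW480. The HCT116 value rests on 35 reads with BZW2 shRNA. The GC and length correction brought its log2 ratio there to −0.99, against −3.05 before, and the log2 fold change across lines to −0.48 ± 0.32.

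Other genes of DNA methylation and of the Polycomb system had medians near that of all genes. Over all genes, 23.7% were higher and 19.8% lower in every line, the shares against which the counts of each list stand. Of 15 tested genes of DNA methylation and demethylation, 3 were higher and 2 lower in every line, with a median of −0.05 (0.12 without HCT116). MBD3, of the NuRD complex, was at 1.14 ± 0.41 (0.75 ± 0.26 without HCT116). Of 11 other PRC2 genes, 2 were higher and 5 lower in every line, with a median of −0.12 (−0.28 without HCT116). PHF19, a Polycomb-like accessory subunit, was higher in every line at 1.64 ± 0.44 (1.29 ± 0.30 without HCT116, limma adjusted p = 0.0372), and LCOR, listed here for the PRC2 accessory protein encoded at its locus, was lower in every line at −1.12 ± 0.47 (−0.42 ± 0.27 without HCT116 and −0.48 ± 0.30 with the GC and length correction). Of 17 genes of Polycomb repressive complex 1, 4 were higher and 4 lower in every line, with a median of −0.07 (0.015 without HCT116). CBX2, a chromobox subunit gene, was at 1.18 ± 0.50 (0.71 ± 0.38 without HCT116), and PCGF5, a Polycomb group RING finger gene, was at −1.88 ± 0.64, or −0.95 ± 0.40 without HCT116. With the GC and length correction CBX2 was at 0.79 ± 0.33 and PCGF5 at −0.82 ± 0.37. None of the genes in these 3 lists passed adjustment over all genes in limma with all 3 lines.

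**Figure D5:**
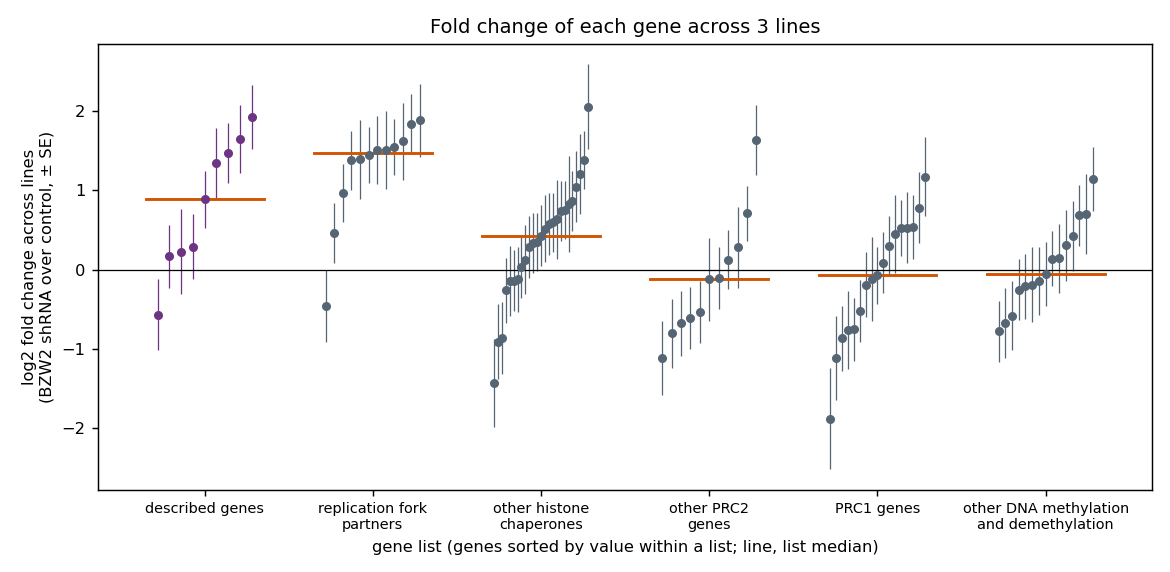
Log2 fold change across the 3 lines with its SE for the 9 measured genes and for 5 related gene lists, with the list median as a line. The fork partners have a median of 1.48 and the 9 genes of 0.89, while the PRC2, PRC1 and DNA methylation lists have medians between −0.12 and −0.05.

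Genes often silenced by promoter methylation in colorectal cancer were mostly not listed in these lines. Of 24 such genes 10 had a row and 6 were listed in all lines, with a median of 0.22 (0.093 without HCT116). Of these 6, 0 were higher in every line, against 23.7% of all genes, and 2 were lower, against 19.8%. The 2 lower genes were CDKN2B at −1.36 ± 0.57 (−0.51 ± 0.28 without HCT116) and IGF2 at −1.11 ± 0.54 (−0.48 ± 0.32 without HCT116). CDKN2B, a cyclin-dependent kinase inhibitor gene, had 12.8 normalised reads with BZW2 shRNA against 113 with control shRNA in HCT116, 427 against 628 in HT29 and, in SW480, 77.8 against 107. In the BZW2 shRNA library of HCT116 CDKN2B was counted from 7 reads and IGF2 from 3. Of 20 cancer testis genes, which DNA methylation keeps silent in most tissues, 2 had a row, MAGEA3 and MAGEB2, and neither was listed in HT29. MAGEA3, whose reads can be split with near-identical MAGE genes, had 722 normalised reads with BZW2 shRNA against 261 with control shRNA in HCT116 and, in SW480, 693 against 507.

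By their 3 within-line ratios, the genes nearest to the median of the 9 were NCAPG2, PRIM2, TPGS2, TTF2 and MELK, at Euclidean distances of 0.16 to 0.30 on the log2 scale among 3480 genes with at least 100 reads in every library. NCAPG2, a condensin subunit gene, stood at log2 ratios of 0.55 for HCT116, 1.05 for HT29 and 1.05 for SW480. PRIM2, a DNA primase subunit gene, had 0.76, 1.12 and 0.89 in the same lines.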

How the data were processed

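RNA sequencing of 6 libraries from 3 lines was analysed, grouped by the treatment label. Per the submitters' processing notes, bcl2fastq 2.17, STAR 2.5.2b and DESeq were used with GRCh38; the sources used here do not give the gene counter, annotation or strandedness. The authors deposited a normalised signal, gene read counts divided by a size factor that, by the values, was set within each line. Of 13040 identifiers 19 were repeated and left out. Whole reads, with a tolerance of 0.1 read, were recovered for 100% of values; the smallest SW480 control value stood for 2 reads. Among genes listed in a line, the lowest sum of reads over its 2 libraries was 21 in each line. The values do not show why the other genes were blank or had no row. Symbols matched 13003 identifiers and GENCODE 29 matched 13018.

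Values were transformed as log2(value + 1), a pseudocount of 1, and tested with limma 3.58.1 (R 4.3.3), line being a block; a minimum value of 1 in 3 libraries removed 0 genes. The test was two-sided, Benjamini-Hochberg adjusted over 10875 genes, threshold 0.05. That scale understates changes of low genes. The fit had 2 residual and 7.26 prior degrees of freedom. Pairing came from the shared line, whose 2 libraries deviated together from the group means (correlations 0.28, 0.75 and 0.45 for HCT116, HT29 and SW480). Nothing in the labels tells of repeat cultures, so p-values measure spread among these lines. With 7.26 prior against 2 residual degrees of freedom, limma p-values and SEs rest largely on a spread estimated over all genes, not on the gene alone. Intervals of folds within a line are 95% Clopper-Pearson intervals and cover counting error only. edgeR 4.0.16 and DESeq2 1.42.0 on recovered reads, other scalings, pseudocounts and filters, a GC and length correction (mgcv 1.9.3) and leaving out each line were alternatives. The fits were tested on simulated data. All measured members are named; of each other list at most 4 genes of smallest p and the paralogs, with DNMT3A, DNMT3B, RBBP4, MAGEA3, MAGEB2 and the epithelial markers named after their values were seen. The members and lists were chosen with earlier results of these data known.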

Additional observations from a re-analysis of the deposited data

Results flagged for a closer look

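HELLS was flagged because its lines went opposite ways beyond counting error. BZW2 shRNA over control shRNA was 0.341-fold in HCT116, 2.34-fold in HT29 and 2.01-fold in SW480. SUZ12 was flagged for the same reason, at 0.317-fold in HCT116, 0.686-fold in HT29 and 1.40-fold in SW480. With 1 pair of libraries per line, the difference between lines was not tested for either gene. The GC and length trend of the whole library moved with both in HCT116, where it amounted to −1.57 on the log2 scale for HELLS and −1.46 for SUZ12, and after its removal the log2 ratios were 0.021 and −0.19. The 0.42 of SUZ12 in SW480 and −0.16 in HT29 after the same removal still differed in sign.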

How the results depend on the processing

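Over 13 alternatives, 106 of the 117 recomputed log2 fold changes of the 9 measured genes kept their direction and their side of the threshold, 8 passed it and 3 turned sign. Those that turned were SUZ12 with the GC and length correction (0.021), HELLS without HT29 (−0.27) and HELLS without SW480 (−0.16), where leaving out a line gave HELLS −0.27 to 1.12. Changing or dropping the low-value filter, or dropping the replicate block, cannot move a fold change of these genes. The directions kept under those alternatives were therefore fixed in advance. Among the paralogs ASF1A turned with the correction (0.55) and without HCT116, in a range of −0.47 to 0.23 over the lines left out. The cause was not tested. Limma passed 0 genes in either direction with 1483 at an unadjusted p under 0.05, and edgeR 0 with 1287, whereas DESeq2 passed 110 higher and 134 lower genes, 3 of them among the 9. With the correction limma passed 2 lower genes. Leaving out a line gave 30 to 187 higher and 27 to 151 lower genes, the most without HCT116, 0 to 5 of the 9 past the threshold, and 0 to 1 of the 9 lower in each remaining line, the 1 being SUZ12 without SW480. Without the replicate block, in which the 2 libraries of a line are not paired, limma passed 0 genes with 191 at an unadjusted p under 0.05, 2 of them among the 9. The median log2 fold change of the 9 ranged from 0.76 with scaling by library size alone, where the median of all genes was −0.10, to 1.05 without HCT116. The count of 5 genes higher in every line held under TMM and library size scaling. With the exon union as length, an alternative chosen after seeing the data, 26 of 54 ranks were as given. Among the 9 measured genes, depth limits CHAF1B and EED most, with 46 and 47 reads in their lowest libraries.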
